A study of Mus musculus with 9 samples.

Results

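Colorectal adenocarcinomas of AOM/DSS mice that received a control IgG (AOM/DSS + IgG Ab, n = 3) were compared with normal colorectal mucosa of untreated mice (Control, n = 3), which are 6 of the 9 RNA-seq samples of the series. The question was which genes differ between the tumor and the normal mucosa of this model. The 3 AOM/DSS + anti-S100a9 Ab samples enter only a fit named where it is used. All mice were male ICR, an outbred strain, and were 5 weeks old at the start. The AOM/DSS + IgG Ab mice had 1 intraperitoneal dose of 10 mg/kg azoxymethane (AOM) and, from the following week, 3 cycles of dextran sulfate sodium (DSS) in the drinking water, at 2% for 7 days in the first cycle and at 1.5% for 5 days in the later ones. They were given 1.5 mg/kg of IgG Ab intravenously at intervals during the DSS cycles and were killed at the end of week 18. Control mice had no AOM, no DSS and no antibody, and their end point was also week 18. The samples are labeled as biological replicates 1 to 3 of each group and are whole tissue. The carcinogen, the colitis, the antibody and the change of tissue from mucosa to tumor therefore cannot be told apart in this comparison.

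AOM is a carcinogen that alkylates DNA, and its colon tumors often carry mutations that stabilize β-catenin, the transcriptional arm of Wnt signaling. DSS injures the colon epithelium, and the colitis that follows promotes the tumors. Normal colon mucosa is built mainly of absorptive colonocytes and mucus-making goblet cells that renew from stem cells at the crypt base, where Wnt signals are high. It normally holds few neutrophils and no Paneth cells, the antimicrobial cells of the small intestinal crypt.

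Each sample has 1 value per gene symbol, in FPKM, which is fragments scaled by transcript length and by library depth. Of 21498 symbols, the 14985 with at least 0.1 FPKM in at least 3 of the 6 samples were tested with limma on log2(FPKM + 0.1), on which the change of genes with low values is understated. A gene is called higher or lower, or is said to rise or fall, where its Benjamini-Hochberg adjusted p was under 0.05 and it differed more than 2-fold. By this rule 503 genes (3.36% of those tested) were higher in AOM/DSS + IgG Ab and 104 genes (0.694%) were lower. In each called gene the 3 samples of one group lay outside the range of the other, which was so for 21.1% of all genes tested in the higher and 10.1% in the lower direction. Counts of list members given below are to be read against these shares of all genes tested. The median log2 fold change was 2.70 for the genes called higher, -1.94 for those called lower and 0.10 for all genes tested. Median-of-ratios scaling and quantile normalization moved the median of all genes to -0.01 and -0.03.

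**Figure D1:**
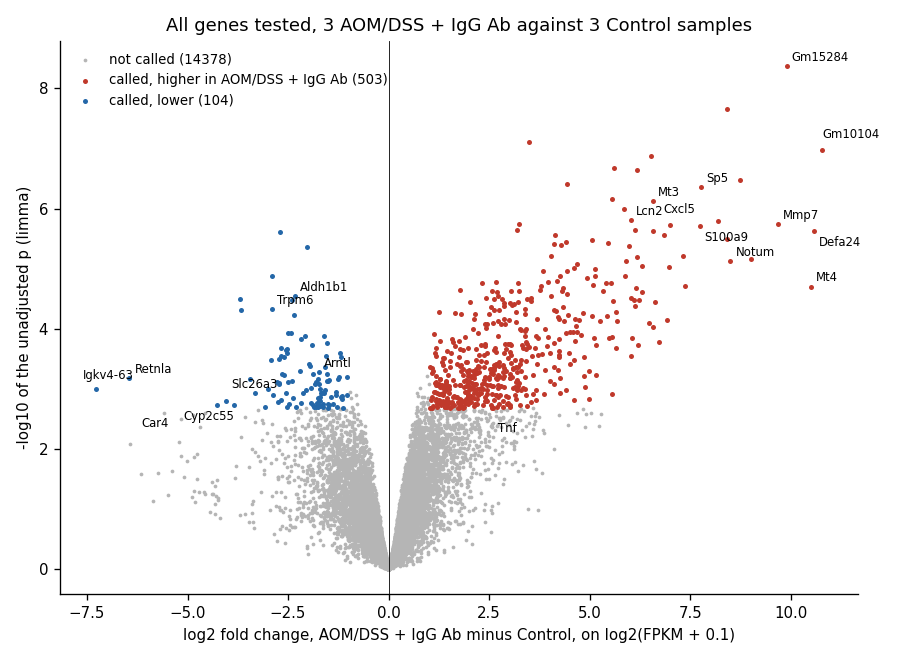
Each point is 1 of the 14985 genes tested, with the log2 fold change (AOM/DSS + IgG Ab minus Control, on log2(FPKM + 0.1)) on the x axis and -log10 of the unadjusted p from limma on the y axis; 503 genes were called higher (red) and 104 lower (blue). The right arm reaches a log2 fold change of 10.78 (Gm10104) and the left arm -7.27 (Igkv4-63).

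AOM/DSS + IgG Ab replicate 1 stood apart from the other tumors. On the first principal component, which held 55.3% of the variance, the Control samples lay between -65.1 and -59.1 and the AOM/DSS + IgG Ab samples at 97.0, 32.0 and 55.2 for replicates 1, 2 and 3. Replicate 1 had the highest value of the tumors in 344 of the 503 raised genes and the lowest in 76 of the 104 lowered genes, and replicate 2 was the tumor nearest to Control in 75 of the lowered genes. Without replicate 1, 328 genes were higher and 73 lower, and without replicate 2, 458 and 250. The fits without Control replicate 1, 2 or 3 or without AOM/DSS + IgG Ab replicate 3 called 144 to 167 genes higher and 13 to 18 lower. Of the called genes, 92 higher and 8 lower were called in every fit that left out 1 sample, and no called gene changed its sign in any alternative fit. Of the genes named below, Aldh1b1, Apcdd1, Arg1, Avil, Cdkn2a, Clca4b, Cldn4, Cxcl14, Cxcl5, Defa24, Dkk2, Epha2, Fosl1, Fst, Gbx2, Gm10104, Gm15315, Ier3, Igkv4-61, Il23a, Krt23, Lcn2, Mmp10, Mmp14, Mmp7, Mmp9, Mt3, Mt4, Notum, Npy, Pnliprp1, Reg3b, Reg3g, S100a8, S100a9, Saa3, Slc16a3, Slc30a2, Sp5, Spp1, Thbs1, Tnfrsf11b, Tnfrsf12a, Trem1, Trpm6, Wif1, Wnt10a and Wnt6 were called in each of the 6 fits that left out 1 sample, and every other called gene lost its call or fell under the filter on low values in at least 1 of them. Some called members of a gene list that the rule for named genes left out are also named, and were chosen after their values were seen, as were Ppbp, Mmp3 and Mmp13. Values below are given in the order of replicates 1, 2 and 3. Since whole tissue was sequenced, fewer cells of a type and less RNA per cell cannot be told apart.

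**Figure D2:**
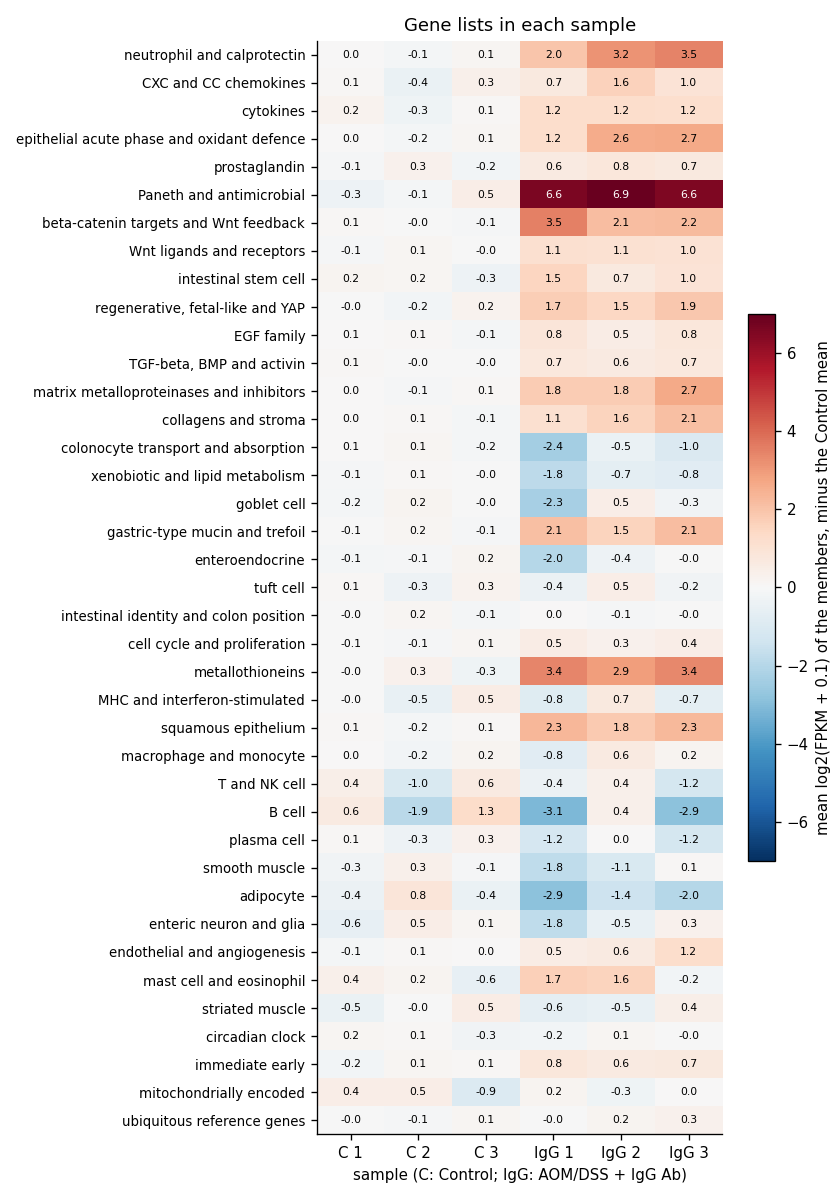
Mean log2(FPKM + 0.1) of the tested members of each of 39 gene lists (rows) in each sample (columns), minus the mean of the Control samples. The Paneth and antimicrobial list lies 6.6 to 6.9 above Control in every tumor, and the absorptive, goblet and endocrine lists are lowest in AOM/DSS + IgG Ab replicate 1. Of the 15 tested members of the Paneth list 5 passed the filter on low values only through the tumors.

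S100a8 and S100a9, which together form calprotectin, a protein that binds calcium and is abundant in neutrophils, were under 1 FPKM in normal mucosa and well above it in all tumors. S100a9 had 0.37, 0.859 and 0.575 FPKM in Control and 63.1, 173 and 267 FPKM in AOM/DSS + IgG Ab, and S100a8 had 0.261, 0.951 and 0.608 FPKM in Control and 35.7, 141 and 242 FPKM in AOM/DSS + IgG Ab. The groups did not overlap for either gene, and among the tumors replicate 1 was the lowest and replicate 3 the highest for both genes. The log2 fold changes were 7.73 (standard error 0.54, adjusted p = 0.0015) for S100a9 and 7.37 (standard error 0.72, adjusted p = 0.0047) for S100a8. The genes lie close together on chromosome 3 of GRCm38, S100a8 from 90668978 to 90670035 and S100a9 from 90692632 to 90695721.

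Of the 21 tested members of the neutrophil and calprotectin list, 9 rose and 0 fell, with a median log2 fold change of 2.72 against 0.10 over all genes. Cxcr2, the receptor for neutrophil-attracting chemokines, rose (log2 fold change 3.39, adjusted p = 0.0068), as did Csf3r, the receptor of the granulocyte growth factor (log2 fold change 1.70, adjusted p = 0.041), and Hdc, which makes histamine (log2 fold change 4.49, adjusted p = 0.017). Ltf, lactoferrin (log2 fold change 3.18, adjusted p = 0.036), and Trem1, an amplifier of myeloid inflammation (log2 fold change 3.06, adjusted p = 0.0061), rose too, as did Clec4d (log2 fold change 2.72, adjusted p = 0.035) and Mrgpra2b (listed at 0 in Control and at 0.369, 0.338 and 0.599 FPKM in the tumors, adjusted p = 0.015). Ly6g, a surface marker of mouse neutrophils, had 88.8, 107 and 117 FPKM in Control and 26.1, 96 and 95.2 FPKM in AOM/DSS + IgG Ab and was not called (adjusted p = 0.41). S100a8, S100a9 and Mpo were each under 1 FPKM in the same Control samples, and which cells the Ly6g value came from was not tested. Retnlg, a resistin-like protein of neutrophils, had 0.0936, 1.86 and 1.34 FPKM in Control and 5.38, 34 and 75.6 FPKM in AOM/DSS + IgG Ab and missed the threshold (adjusted p = 0.07). Mpo, the myeloperoxidase of neutrophil granules, lay between 0.0449 and 0.159 FPKM in all 6 samples. Of the 21 members, 6 passed the filter on low values only through the tumor samples, and 2 of the rises, Cxcr2 and Mrgpra2b, were among them. With 1 sample left out, 4 to 6 members rose, fewest without any Control sample or without AOM/DSS + IgG Ab replicate 3. Cxcr2 and Mrgpra2b were not tested where a tumor was left out. Of the 3 fits without 1 sample that tested them, Cxcr2 was called in 3 and Mrgpra2b in 0.

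Of 29 chemokine genes tested, 5 rose and 0 fell, with a median of 0.74 (0.49 without Control replicate 2 and 0.14 without AOM/DSS + IgG Ab replicate 2), and 4 of the 5 were CXC chemokines that attract neutrophils. Cxcl5 had 0.408, 0.0704 and 0.309 FPKM in Control and 36.6, 66.7 and 30.8 FPKM in AOM/DSS + IgG Ab (log2 fold change 7.01, standard error 0.49, adjusted p = 0.0015), and Cxcl1 had 0.868, 0.294 and 0.374 FPKM in Control and 28.1, 7.56 and 12.6 FPKM in AOM/DSS + IgG Ab (log2 fold change 4.63, standard error 0.55, adjusted p = 0.0081). Cxcl2 was listed at 0 in each Control sample and at 5.56, 3.16 and 5.42 FPKM in the tumors (adjusted p = 0.00093), and Cxcl3 was listed at 0 in Control and at 1.87, 1.33 and 16 FPKM in the tumors (adjusted p = 0.028). Cxcl2 and Cxcl3, 2 of the 5 rises, passed the filter on low values only through the tumors, and of the 3 fits without 1 sample that tested them Cxcl2 was called in 3 and Cxcl3 in 0. These 4 genes lie within 1 cluster on chromosome 5 between 90759360 and 90905938. Ppbp, a platelet chemokine gene of the same cluster, had 0.175, 0.151 and 0.0459 FPKM in Control and 0.324, 0.377 and 1.44 FPKM in AOM/DSS + IgG Ab and was not called (adjusted p = 0.15). Cxcl14, a chemokine of epithelia, was the other member that rose (log2 fold change 2.86, adjusted p = 0.0059). The epithelial chemokine Ccl28, which draws IgA plasma cells, had 43, 59 and 37.6 FPKM in Control and 2.86, 33.4 and 11.9 FPKM in AOM/DSS + IgG Ab and was not called (adjusted p = 0.18). In the fits that left out 1 sample, 3 or 4 chemokines rose, fewest without Control replicate 3 or AOM/DSS + IgG Ab replicate 1 or 2.

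Among the cytokines, Il23a, which encodes a chain of interleukin-23, had 0.144, 0.0687 and 0.201 FPKM in Control and 13.9, 3.06 and 5.17 FPKM in AOM/DSS + IgG Ab (log2 fold change 4.73, standard error 0.57, adjusted p = 0.0083). Il11, a cytokine of the IL-6 family made by stromal cells, had 0.154, 0.0683 and 0.132 FPKM in Control and 6.45, 1.95 and 9.84 FPKM in AOM/DSS + IgG Ab (log2 fold change 4.57, standard error 0.59, adjusted p = 0.011), and Il1b, a main inflammatory cytokine of myeloid cells, had 4.99, 1.9 and 3.27 FPKM in Control and 20.9, 10.4 and 12.8 FPKM in AOM/DSS + IgG Ab (log2 fold change 2.13, standard error 0.40, adjusted p = 0.039). The tumors were above all Control samples for each of these genes. Lif, another cytokine of the IL-6 family, rose (log2 fold change 1.77, adjusted p = 0.023). Il1a was called as well (log2 fold change 2.84, adjusted p = 0.049), but it lost the call in every fit that left out 1 sample. Tnf had 2.39, 0.39 and 2.17 FPKM in Control and 12.4, 9.35 and 5.06 FPKM in AOM/DSS + IgG Ab, and Il6 had 0.0451, 0.0171 and 0.0316 FPKM in Control and 0.11, 0.573 and 0.293 FPKM in AOM/DSS + IgG Ab. The groups did not overlap for either cytokine, but neither passed the adjusted threshold (adjusted p = 0.083 and 0.12). Il1rn, the natural antagonist of IL-1, was not called (log2 fold change 0.77, adjusted p = 0.089). Over the list, 5 of 23 tested members rose and 0 fell, with a median of 1.22 (0.77 without Control replicate 2 and 0.59 without AOM/DSS + IgG Ab replicate 3). Without Control replicate 3, 1 cytokine rose, and in the other fits without 1 sample up to 4.

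Secreted antimicrobial and acute-phase proteins of the epithelium accounted for 6 further rises among 21 tested genes, with 0 falls and a median of 1.74. Lcn2, lipocalin 2, which withholds iron from bacteria, had 1.78, 2.29 and 0.933 FPKM in Control and 95.6, 77.7 and 176 FPKM in AOM/DSS + IgG Ab (log2 fold change 6.04, standard error 0.41, adjusted p = 0.0015). Saa3, a serum amyloid A, had 1.39, 0.278 and 2.83 FPKM in Control and 75, 70.4 and 272 FPKM in AOM/DSS + IgG Ab (log2 fold change 6.58, standard error 0.83, adjusted p = 0.01). The Reg3 lectins bind the wall of bacteria. Reg3b had 0.0505, 0.119 and 0.402 FPKM in Control and 45, 77.4 and 193 FPKM in AOM/DSS + IgG Ab, and Reg3g had 1.61, 0.31 and 2.04 FPKM in Control and 53, 67.6 and 114 FPKM in AOM/DSS + IgG Ab (log2 fold change 8.43 and 6.02, adjusted p = 0.0018 and 0.0057). For each of these 4 genes the lowest tumor was far above the highest Control sample. Cp, ceruloplasmin (log2 fold change 2.05, adjusted p = 0.046), and Lbp, which binds bacterial lipopolysaccharide (log2 fold change 2.75, adjusted p = 0.023), were the other members that rose. Saa1, another serum amyloid A, had 1451, 1907 and 3324 FPKM in Control and 214, 1173 and 728 FPKM in AOM/DSS + IgG Ab and was not called (adjusted p = 0.16). Duox2, an epithelial oxidase, was not called either (log2 fold change 0.41, adjusted p = 0.53). In the fits that left out 1 sample, 4 to 7 members rose, fewest without Control replicate 2 or 3 or AOM/DSS + IgG Ab replicate 3.

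**Figure D3:**
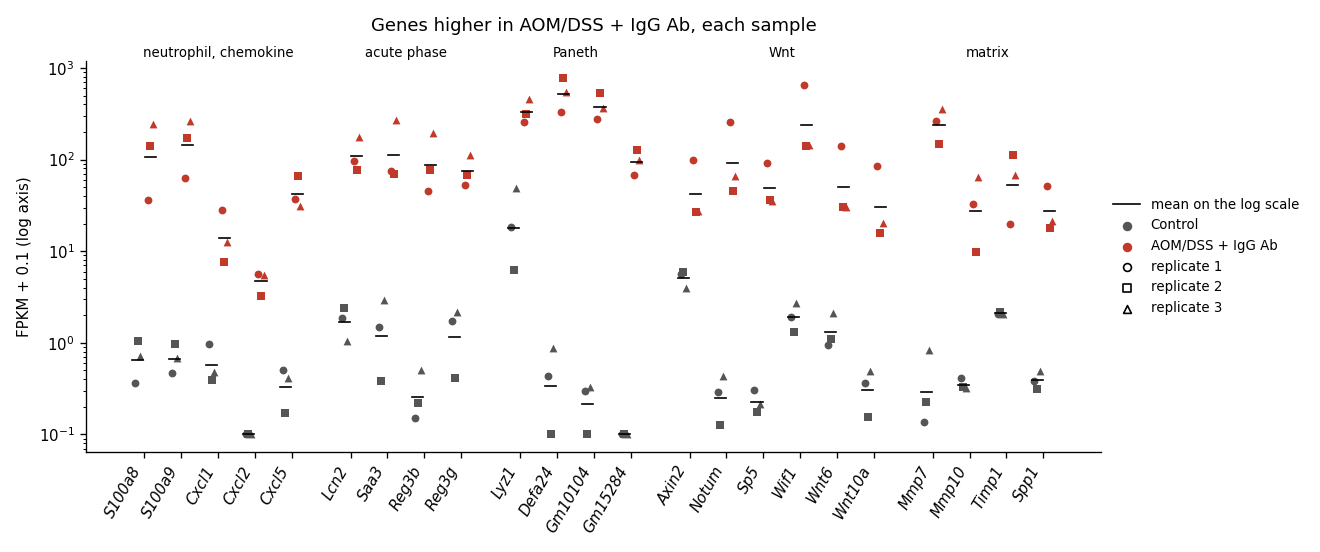
FPKM + 0.1 (log axis) of genes called higher, 1 symbol per sample (circle, square and triangle for replicates 1, 2 and 3), Control in grey and AOM/DSS + IgG Ab in red, with the mean on the log scale as a bar; points at 0.1 are genes listed at 0. For every gene shown, the 3 tumors lie above the 3 Control samples.

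Paneth cell genes, chiefly α-defensins that kill bacteria, were among the largest rises of all genes. Defa24 had 0.333, 0 and 0.778 FPKM in Control and 330.2, 770.5 and 542 FPKM in AOM/DSS + IgG Ab, and Gm10104, which RefSeq names Defa35, had 0.199, 0 and 0.23 FPKM in Control and 275, 529 and 368 FPKM in AOM/DSS + IgG Ab. Gm15284, which RefSeq names Defa30, was listed at 0 in all 3 Control samples and at 68.3, 127 and 99.4 FPKM in the tumors. The adjusted p-values were 0.0015, 0.00039 and 6.3e-05, and the log2 fold changes of Defa24 and Gm10104 were 10.59 and 10.78. α-Defensins are near-identical copies of each other on chromosome 8, Defa24 from 21734494 to 21735471, so the split of fragments among the copies, and with it each copy's value, is uncertain. Lyz1, the Paneth lysozyme, had 18.4, 6.17 and 49.2 FPKM in Control and 259, 312 and 459 FPKM in AOM/DSS + IgG Ab (log2 fold change 4.22, standard error 0.69, adjusted p = 0.025). Ang4, an antimicrobial ribonuclease of Paneth and goblet cells, had 1.67, 23.6 and 25.9 FPKM in Control and 106, 301 and 371 FPKM in AOM/DSS + IgG Ab and was not called (adjusted p = 0.068).

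The Paneth and antimicrobial list held 27 genes, 24 of them in the files and 15 tested, of which 12 rose and 0 fell, with a median of 6.92, in which genes listed at 0 in Control stand at values that depend on the pseudocount. Of those tested, 5 passed the filter only through the tumors, all of them among the 12 rises, and 4 were listed at 0 in all Control samples, and copies entered the list with earlier results of these data known. The other members that rose were the defensins Defa17 (listed at 0 in Control and at 24.3, 46.1 and 34.4 FPKM in the tumors, adjusted p = 0.00017), Defa5 (listed at 0 in Control and at 4.08, 4.91 and 5.5 FPKM in the tumors, adjusted p = 0.00048), Gm15292 (listed at 0 in Control and at 8.94, 12.7 and 3.19 FPKM in the tumors, adjusted p = 0.0026) and Gm15315 (log2 fold change 8.20, adjusted p = 0.0015), Mmp7, which is described with the matrix enzymes, and Habp2 (log2 fold change 6.53, adjusted p = 0.0004), a plasma protease. In the fits without 1 sample, 6 to 12 members rose, fewest without AOM/DSS + IgG Ab replicate 1 or 3. Gm15284, Defa17, Defa5, Gm15292 and Habp2 passed the filter only through the tumors, so they were not tested where a tumor was left out. Each of these 5 was called in all 3 fits without 1 sample that tested it. Pnliprp1 and Pnliprp2, neighbouring genes for pancreatic lipase-related proteins, stand in this list as well. Pnliprp1 had 0.485, 1.09 and 0.83 FPKM in Control and 1405, 430.3 and 148 FPKM in AOM/DSS + IgG Ab, and Pnliprp2 had 0.764, 1.88 and 1.48 FPKM in Control and 701, 89.2 and 77.4 FPKM in AOM/DSS + IgG Ab, with replicate 1 the highest and replicate 3 the lowest tumor for both. The log2 fold changes were 9.01 and 6.92 (adjusted p = 0.0027 and 0.0083). Of defining genes of the exocrine pancreas, Prss1 and Amy2a5 were listed at 0 in all 6 samples, and Cpa1 and Pnlip at no more than 0.022 and 0.0786 FPKM. Rps18, a ribosomal protein gene that nearly all cells express highly, was itself listed at no more than 0.274 FPKM, so a low listed value does not show a lack of expression, and the part of pancreatic tissue in these values was not tested.

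In the list of β-catenin targets and Wnt feedback genes 14 of 28 tested members rose and 1 fell, with a median of 2.17. Beside genes that β-catenin switches on, several of which encode feedback inhibitors of Wnt signaling, the list holds TCF factors such as Tcf7l1. In 25 of the 28 all tumors were above all Control samples, against 21.1% of all genes tested. Notum, an enzyme that inactivates Wnt proteins, had 0.189, 0.0261 and 0.334 FPKM in Control and 255, 45 and 65.3 FPKM in AOM/DSS + IgG Ab (log2 fold change 8.50, standard error 0.72, adjusted p = 0.0028). Wif1, a secreted Wnt-binding inhibitor, had 1.83, 1.23 and 2.59 FPKM in Control and 657, 142 and 143 FPKM in AOM/DSS + IgG Ab (log2 fold change 6.96, standard error 0.61, adjusted p = 0.0032), and Sp5, a transcription factor induced by Wnt, had 0.203, 0.0746 and 0.114 FPKM in Control and 91.9, 36.4 and 35.2 FPKM in AOM/DSS + IgG Ab (log2 fold change 7.77, standard error 0.43, adjusted p = 0.00064). For Notum and Wif1 the value of replicate 1 was well above those of replicates 2 and 3. Axin2 and Nkd1, classical targets that also restrain the pathway, started from a higher level in normal mucosa. Axin2 had 5.6, 5.84 and 3.87 FPKM in Control and 98.5, 26.5 and 27.7 FPKM in AOM/DSS + IgG Ab, and Nkd1 had 5.02, 7.33 and 5.71 FPKM in Control and 178, 38.6 and 54 FPKM in AOM/DSS + IgG Ab (log2 fold change 3.03 and 3.57, adjusted p = 0.027 and 0.018). Myc, the growth-promoting transcription factor, rose (log2 fold change 1.45, adjusted p = 0.044), as did Prox1, a homeobox factor (log2 fold change 4.61, adjusted p = 0.02), and Rnf43, which removes Wnt receptors from the surface (log2 fold change 2.44, adjusted p = 0.032). The remaining rises were those of Apcdd1 (log2 fold change 6.22, adjusted p = 0.0057), Dkk2 (log2 fold change 5.07, adjusted p = 0.0018), Bambi (log2 fold change 1.85, adjusted p = 0.024), Sox17 (log2 fold change 2.51, adjusted p = 0.029), Cd44 (log2 fold change 1.36, adjusted p = 0.035) and Tnfrsf19 (log2 fold change 2.86, adjusted p = 0.034). Tcf7l1, a TCF factor that represses Wnt targets, fell from 21.4, 26.7 and 25.4 FPKM to 6.61, 10.4 and 8.64 FPKM (log2 fold change -1.52, adjusted p = 0.014).

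In the fits without 1 sample, 5 to 15 members of the β-catenin list rose, fewest without any 1 of the Control samples. Lgr5, a target of β-catenin and the marker of crypt-base stem cells, had 1.27, 1.46 and 0.265 FPKM in Control and 17.8, 2.54 and 10.5 FPKM in AOM/DSS + IgG Ab and missed the threshold (adjusted p = 0.089). Ccnd1, cyclin D1, was not called (log2 fold change 0.86, adjusted p = 0.13). Sp5 and Reg3g are shown with the 250 bases upstream of their RefSeq starts (GRCm38.p6; Sp5 chr2:70474673-70474922, plus strand; Reg3g chr6:78468875-78469124, minus strand), because both rose and both hold the letters CTTTGAT, a core of the sequence bound by TCF factors (in capitals). The letters start 104 bases before the start of Sp5 and 54 bases before that of Reg3g.
Sp5: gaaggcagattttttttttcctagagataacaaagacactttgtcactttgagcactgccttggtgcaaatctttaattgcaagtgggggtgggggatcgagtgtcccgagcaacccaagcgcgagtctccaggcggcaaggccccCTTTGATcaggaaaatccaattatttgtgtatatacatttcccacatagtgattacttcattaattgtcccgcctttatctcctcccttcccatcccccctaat
Reg3g: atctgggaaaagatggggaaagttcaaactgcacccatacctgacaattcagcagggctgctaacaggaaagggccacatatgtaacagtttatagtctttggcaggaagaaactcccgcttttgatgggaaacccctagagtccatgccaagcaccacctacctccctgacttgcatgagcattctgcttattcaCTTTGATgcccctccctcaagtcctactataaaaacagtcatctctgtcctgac
Both strands were searched. The letters stood in the window of 2 of the 17 list members for which a window was listed, Sp5 and Tnfrsf19, and in 3.72% of all 27025 genes with a window. In Reg3g's own list, of acute-phase genes, 3 of 20 windows held them (Reg3g, Reg2 and Reg3a, which are similar genes). In the Paneth list 6 of 13 windows held them, 5 of them of α-defensins that are near-identical copies (Defa2, Defa20, Defa21, Defa22 and Defa23). These 5 α-defensins, Reg2 and Reg3a fell under the filter on low values and were not tested for a change. No α-defensin that rose was among the matches, and for Defa24 no window was listed. A match is a description of these letters and not a binding site.

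Of 35 tested Wnt ligands and receptors 5 rose and 0 fell, with a median of 0.79 (0.47 without AOM/DSS + IgG Ab replicate 1). Wnt6 and Wnt10a are adjacent ligand genes on chromosome 1 (74771892 to 74785322 and 74791516 to 74804179). Wnt6 had 0.853, 1 and 2.01 FPKM in Control and 139, 30 and 30.2 FPKM in AOM/DSS + IgG Ab, and Wnt10a had 0.267, 0.0561 and 0.395 FPKM in Control and 85.1, 15.6 and 20.4 FPKM in AOM/DSS + IgG Ab. Their log2 fold changes were 5.27 and 6.63 (adjusted p = 0.0084 and 0.0059), and in both genes replicate 1 was the highest tumor. Fzd10, a Frizzled receptor, had 0.153, 0.135 and 0.0815 FPKM in Control and 21.8, 4.21 and 2.75 FPKM in AOM/DSS + IgG Ab (log2 fold change 4.87, standard error 0.73, adjusted p = 0.018). The ligands Wnt3 (log2 fold change 2.21, adjusted p = 0.026) and Wnt7b (log2 fold change 2.92, adjusted p = 0.025) rose as well, but both passed the filter on low values only through the tumors, as did 3 of the 35 members in all, and each was called in 0 of the 3 fits without 1 sample that tested it. Wnt5a, a ligand of the mesenchyme, had 2.95, 2.76 and 1.94 FPKM in Control and 10.6, 4.3 and 7.4 FPKM in AOM/DSS + IgG Ab and was not called (adjusted p = 0.079). Between 2 and 4 rose with 1 sample left out, fewest without any 1 of the Control samples.

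In the stem cell list, 3 of 15 tested members rose and 1 fell, with a median of 0.87 (0.49 without AOM/DSS + IgG Ab replicate 1). Axin2, described above, was 1 of the 3. Msi1, an RNA-binding protein of progenitors, had 0.328, 0.259 and 0.297 FPKM in Control and 8.83, 2.86 and 2.79 FPKM in AOM/DSS + IgG Ab (log2 fold change 3.43, adjusted p = 0.015), and Tnfrsf19, a receptor of the TNF receptor family, had 1.78, 1.4 and 0.845 FPKM in Control and 21.2, 8.56 and 5.49 FPKM in AOM/DSS + IgG Ab (log2 fold change 2.86, adjusted p = 0.034). Smoc2, a matrix protein of stem cells, had 10.3, 14.2 and 10.4 FPKM in Control and 133, 23.8 and 56.4 FPKM in AOM/DSS + IgG Ab and was not called (adjusted p = 0.075). Aldh1a1, which makes retinoic acid, fell from 43.6, 47 and 29.6 FPKM to 4.31, 8.8 and 8.58 FPKM (log2 fold change -2.50, adjusted p = 0.011). With any 1 of the Control samples left out, 0 stem cell genes were called higher, and in the other fits up to 6.

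Genes of the regenerating, fetal-like epithelium and targets of YAP rose in part. Spp1, osteopontin, had 0.285, 0.214 and 0.397 FPKM in Control and 51.8, 17.9 and 21.4 FPKM in AOM/DSS + IgG Ab (log2 fold change 6.12, standard error 0.44, adjusted p = 0.0015), and Tnfrsf12a, the receptor of TWEAK, had 9.06, 14.3 and 15.9 FPKM in Control and 110.5, 58.6 and 95.8 FPKM in AOM/DSS + IgG Ab (log2 fold change 2.73, standard error 0.31, adjusted p = 0.0069). The tumors lay above Control for each of them, with replicate 1 the highest. Further rises were those of Anxa8 (log2 fold change 2.72, adjusted p = 0.027), Ankrd1 (log2 fold change 2.16, adjusted p = 0.047), Ajuba (log2 fold change 2.52, adjusted p = 0.024), Tead2 (log2 fold change 2.63, adjusted p = 0.024), Plaur (log2 fold change 2.19, adjusted p = 0.035) and Epha2 (log2 fold change 2.63, adjusted p = 0.0069). Ly6a (Sca-1), Anxa1 and Clu, often used as markers of the regenerative state, were not called. Ly6a had 194, 129.8 and 207 FPKM in Control and 257, 429 and 289 FPKM in AOM/DSS + IgG Ab, and Anxa1 had 109.6, 116 and 109 FPKM in Control and 155, 134 and 198 FPKM in AOM/DSS + IgG Ab. Clu had 131, 47.9 and 238 FPKM in Control and 228, 139 and 315 FPKM in AOM/DSS + IgG Ab (adjusted p = 0.14, 0.17 and 0.39 for Ly6a, Anxa1 and Clu). Edn1, endothelin 1, fell from 18.4, 23.1 and 21.8 FPKM to 2.89, 6.05 and 5.37 FPKM (log2 fold change -2.18, adjusted p = 0.013). Over the list 9 of 23 members rose and 1 fell, with a median of 1.6, and 4 to 9 rose without 1 sample, fewest without any 1 of the Control samples.

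Of 21 tested matrix metalloproteinases and inhibitors 8 rose and 0 fell, with a median of 1.43, and Mmp7 had the largest rise. Mmp7, matrilysin, which epithelial and Paneth cells make and which also activates α-defensins, had 0.0353, 0.125 and 0.724 FPKM in Control and 263, 148 and 353 FPKM in AOM/DSS + IgG Ab (log2 fold change 9.67, standard error 0.67, adjusted p = 0.0015). Mmp10, stromelysin 2, had 0.313, 0.227 and 0.218 FPKM in Control and 32.7, 9.69 and 64.3 FPKM in AOM/DSS + IgG Ab (log2 fold change 6.29, standard error 0.64, adjusted p = 0.005), and Mmp9, a gelatinase that neutrophils carry, had 2.08, 1.07 and 1.69 FPKM in Control and 25.3, 11.5 and 20.1 FPKM in AOM/DSS + IgG Ab (log2 fold change 3.45, standard error 0.37, adjusted p = 0.0057). Timp1, an inhibitor of these enzymes, had 1.97, 2.04 and 1.97 FPKM in Control and 19.7, 113 and 67 FPKM in AOM/DSS + IgG Ab (log2 fold change 4.67, standard error 0.58, adjusted p = 0.0096). In Timp1 replicate 1 was the lowest tumor. The gelatinase Mmp2 (log2 fold change 1.43, adjusted p = 0.046) and the membrane-bound Mmp14 (log2 fold change 2.43, adjusted p = 0.0057) rose, as did Mmp28 (log2 fold change 1.46, adjusted p = 0.017). In the fits without 1 sample 4 to 9 members rose, fewest without Control replicate 3. Mmp15, another membrane-bound member, was not called (log2 fold change 0.32, adjusted p = 0.37).

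The 250 bases upstream of Mmp7 (chr9:7691840-7692089) and Mmp10 (chr9:7502092-7502341), both on the plus strand of GRCm38.p6, are shown, for Mmp7 at the 1 of its 2 RefSeq starts that holds the letters, because these genes had the largest rises of the family and each holds the letters TGANTCA, which include the core bound by AP-1 factors (in capitals; both strands were searched), starting 63 bases before the RefSeq start.
Mmp7: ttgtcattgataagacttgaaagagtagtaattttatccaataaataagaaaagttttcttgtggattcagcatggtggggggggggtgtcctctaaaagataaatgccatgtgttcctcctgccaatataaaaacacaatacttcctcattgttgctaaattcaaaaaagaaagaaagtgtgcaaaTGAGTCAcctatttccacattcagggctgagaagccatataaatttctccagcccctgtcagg
Mmp10: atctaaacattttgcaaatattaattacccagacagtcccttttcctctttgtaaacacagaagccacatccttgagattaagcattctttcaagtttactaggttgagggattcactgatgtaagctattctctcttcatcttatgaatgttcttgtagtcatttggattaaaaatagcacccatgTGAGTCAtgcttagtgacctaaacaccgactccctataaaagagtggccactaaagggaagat
Of 17 members of the list with a listed window, 5 held these letters (Mmp3, Mmp7, Mmp10, Mmp12 and Mmp13), against 7.82% of all genes with a window. These 5 genes lie together on chromosome 9 between 7272514 and 7699585, so they are not independent examples. Mmp12, the elastase of macrophages, rose (log2 fold change 3.29, adjusted p = 0.02). Mmp3 had 1.21, 0.181 and 1.05 FPKM in Control and 1.1, 5.32 and 23.6 FPKM in AOM/DSS + IgG Ab, and Mmp13 had 0.904, 1.39 and 1.07 FPKM in Control and 4.73, 3.16 and 32.8 FPKM in AOM/DSS + IgG Ab, and neither was called (adjusted p = 0.19 and 0.11). In Mmp3 and Mmp13 replicate 3 stood above the other tumors. Among AP-1 and other immediate early genes, Fosl1, a Fos family member of AP-1, had 0.0227, 0.0837 and 0.111 FPKM in Control and 1.81, 1.38 and 2.56 FPKM in AOM/DSS + IgG Ab (log2 fold change 3.54, adjusted p = 0.0057). Ier3 (log2 fold change 2.70, adjusted p = 0.005) and Nr4a1 (log2 fold change 1.75, adjusted p = 0.018) rose as well. Fos and Atf3 were not called (log2 fold change -0.50 and 0.92, adjusted p = 0.51 and 0.27). Over that list 4 of 22 members rose, Myc among them, and 0 fell, with a median of 0.63 (0.41 without Control replicate 1), and 2 to 4 rose without 1 sample.

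Of 43 tested collagens and other stromal genes 14 rose and 0 fell, with a median of 1.48. In 30 of the 43 all tumors were above all Control samples, against 21.1% of all genes tested. The abundant fibrillar collagens of fibroblasts were far higher in AOM/DSS + IgG Ab replicates 2 and 3 than in replicate 1. Col1a1 had 43.4, 38.7 and 44.6 FPKM in Control and 68.6, 489 and 358 FPKM in AOM/DSS + IgG Ab, and Col3a1 had 109.6, 98.3 and 73.4 FPKM in Control and 188, 777 and 533 FPKM in AOM/DSS + IgG Ab, and neither was called (adjusted p = 0.097 and 0.064). Lox, which cross-links collagen, had 0.343, 0.424 and 0.327 FPKM in Control and 2.23, 21.7 and 19.1 FPKM in AOM/DSS + IgG Ab and was called (log2 fold change 4.42, adjusted p = 0.036). Col9a3, a collagen of cartilage, was called from a low level, at 0.278, 0.221 and 0.304 FPKM in Control and 7.25, 1.66 and 4.56 FPKM in AOM/DSS + IgG Ab (log2 fold change 3.42, adjusted p = 0.02). The other collagens that rose were Col5a2 (log2 fold change 2.01, adjusted p = 0.034), Col6a5 (log2 fold change 1.42, adjusted p = 0.032), Col17a1 (log2 fold change 3.01, adjusted p = 0.049), Col18a1 (log2 fold change 2.25, adjusted p = 0.025) and Col9a2 (log2 fold change 2.66, adjusted p = 0.04). Laminin chains of the basement membrane rose, Lama1 (log2 fold change 3.41, adjusted p = 0.01) and Lama5 (log2 fold change 1.92, adjusted p = 0.03), and so did Thbs1 (log2 fold change 3.28, adjusted p = 0.01), Loxl2 (log2 fold change 2.24, adjusted p = 0.039) and Itgb8 (log2 fold change 2.36, adjusted p = 0.018), and Spp1, described above. Fn1, fibronectin, was not called (log2 fold change 1.42, adjusted p = 0.07). The summed level of the list was from 939 to 1086 FPKM in Control and from 1519.8 to 3767 FPKM in AOM/DSS + IgG Ab. Without Control replicate 3, 2 members rose, and in the other fits without 1 sample up to 15.

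**Figure D4:**
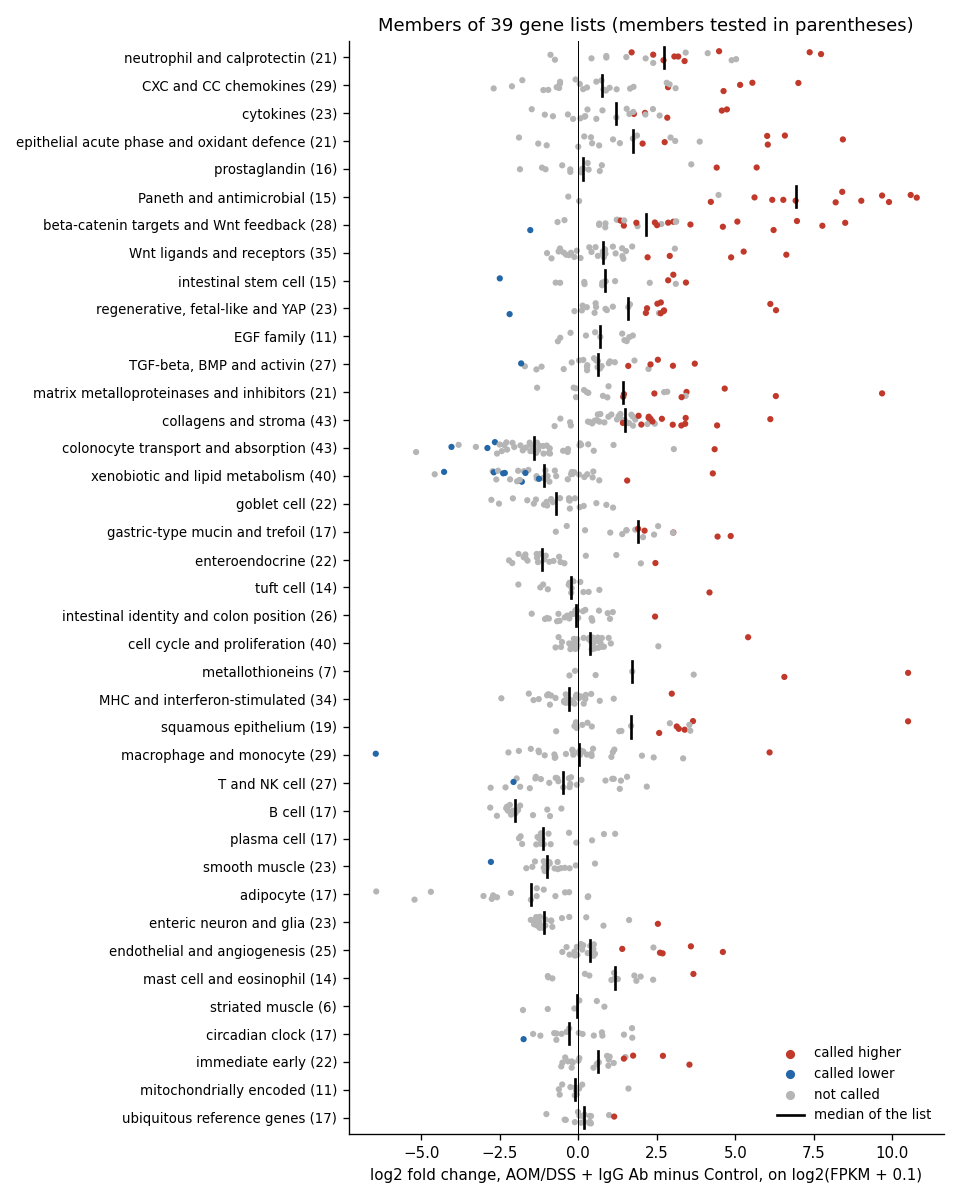
Log2 fold change (AOM/DSS + IgG Ab minus Control) of each tested member of 39 gene lists, with called genes in red (higher) or blue (lower), the others in grey and the median of each list as a black bar. The Paneth list has the highest median, 6.92, and the B cell list the lowest, -2.0, with 0 of its members called. The Paneth median depends on the pseudocount (5.12 with 1 and 9.33 with 0.01). Of its 15 tested members 5 passed the filter only through the tumors, and the list was made with earlier results of these data known.

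Of 27 tested genes of the TGF-β, BMP and activin family 5 rose and 1 fell, with a median of 0.62. Inhbb, a subunit of activin B, had 0.513, 0.372 and 0.464 FPKM in Control and 13.8, 3.42 and 7.4 FPKM in AOM/DSS + IgG Ab (log2 fold change 3.71, adjusted p = 0.013), and Bmp7, a bone morphogenetic protein, had 2.71, 2.76 and 3.11 FPKM in Control and 39.3, 8.18 and 15.4 FPKM in AOM/DSS + IgG Ab (log2 fold change 2.54, adjusted p = 0.048). Fst, follistatin, which binds activin, had 0.258, 0.54 and 0.374 FPKM in Control and 4.64, 3.14 and 3.65 FPKM in AOM/DSS + IgG Ab (log2 fold change 3.02, adjusted p = 0.0059). The other rises were those of Bmp1 (log2 fold change 1.59, adjusted p = 0.014) and Bmp8b (log2 fold change 2.30, adjusted p = 0.02). With 1 sample left out 1 to 6 rose, fewest without Control replicate 1 or 2. Of the 11 tested genes of the EGF family, 0 rose and 0 fell, with a median of 0.70. Areg, Ereg and Nrg1 are ligands of ErbB receptors. Areg had 6.87, 4.22 and 7.51 FPKM in Control and 12.7, 11.7 and 32.2 FPKM in AOM/DSS + IgG Ab, and Ereg had 2.92, 2.67 and 1.76 FPKM in Control and 11.5, 4.4 and 11 FPKM in AOM/DSS + IgG Ab. Nrg1 had 0.543, 0.289 and 0.317 FPKM in Control and 2.72, 1.12 and 0.787 FPKM in AOM/DSS + IgG Ab (adjusted p = 0.11, 0.07 and 0.11 for Areg, Ereg and Nrg1). The tumors lay above Control for all 3 ligands. Of the 11 tested members, 6 had all tumors above all Control samples, against 21.1% of all genes tested. In 2 of the 11 all tumors lay below, against 10.1% of all genes tested. Without 1 sample up to 2 EGF family genes were called higher.

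Of 25 tested endothelial and angiogenesis genes, 5 rose and 0 fell, with a median of 0.38 (0.02 without AOM/DSS + IgG Ab replicate 3). Angpt2, which loosens vessels, had 0.603, 0.772 and 0.641 FPKM in Control and 7.24, 2.34 and 5.61 FPKM in AOM/DSS + IgG Ab (log2 fold change 2.60, adjusted p = 0.027), and Pgf, placental growth factor, had 0.216, 0.544 and 0.622 FPKM in Control and 16.8, 2.59 and 5.52 FPKM in AOM/DSS + IgG Ab (log2 fold change 3.59, adjusted p = 0.039). Cdh5, the cadherin of endothelial cells, was not called (log2 fold change 0.44, adjusted p = 0.55). The other rises were those of Angpt4 (log2 fold change 2.69, adjusted p = 0.049) and Esm1 (log2 fold change 1.40, adjusted p = 0.048) and of Prox1, named above. With any 1 of the Control samples left out, 0 of the 25 were called.

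Of the 4 metallothioneins, small proteins that bind zinc and copper, 2 rose and 0 fell. The list of 7 genes they belong to, which also holds the zinc-sensing factor Mtf1 and the zinc transporters Slc30a1 and Slc39a10 with none of these 3 called, had a median of 1.72 (1.07 without AOM/DSS + IgG Ab replicate 3). Mt4, normally a gene of stratified epithelium, had 0.479, 1.49 and 0 FPKM in Control and 1592, 599 and 295 FPKM in AOM/DSS + IgG Ab, and Mt3, best known from brain, had 3.01, 3.6 and 4.86 FPKM in Control and 687, 272 and 258 FPKM in AOM/DSS + IgG Ab. Replicate 1 was highest in both, and the log2 fold changes were 10.50 and 6.56 (adjusted p = 0.0048 and 0.00095). Mt1 and Mt2, the ubiquitous members, were highest in replicate 3. Mt1 had 67.2, 103 and 143 FPKM in Control and 167, 166 and 1291 FPKM in AOM/DSS + IgG Ab, and Mt2 had 18, 31.9 and 46.3 FPKM in Control and 237, 166 and 1429 FPKM in AOM/DSS + IgG Ab, and neither was called (adjusted p = 0.25 and 0.054). The 4 genes lie in a row on chromosome 8 between 94137197 and 94180327, and their short, similar transcripts could share fragments.

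Of 35 genes in the squamous list 19 were tested, 6 rose and 0 fell, with a median of 1.69. The median was 1.31 without AOM/DSS + IgG Ab replicate 1, 2.58 without Control replicate 1 and 2.79 without AOM/DSS + IgG Ab replicate 2. Krt14, a keratin of basal cells, had 0.932, 0.797 and 1.68 FPKM in Control and 37.1, 4.63 and 18.6 FPKM in AOM/DSS + IgG Ab (log2 fold change 3.66, adjusted p = 0.044), and Krt4, a keratin of mucosal squamous epithelium, had 0.249, 0.12 and 0.0405 FPKM in Control and 5.22, 1.06 and 1.91 FPKM in AOM/DSS + IgG Ab (log2 fold change 3.39, adjusted p = 0.035). The defining basal genes Krt5 and Trp63 had listed values of at most 0.468 and 0.0223 FPKM in any sample. The other rises were those of Krt6a (listed at 0 in Control and at 0.595, 0.25 and 0.776 FPKM in the tumors, adjusted p = 0.024), Dsg3 (listed at 0 in Control and at 1.87, 0.723 and 0.384 FPKM in the tumors, adjusted p = 0.025) and Sprr1a (log2 fold change 3.14, adjusted p = 0.02) and of Mt4. Krt6a and Dsg3 passed the filter only through the tumors and were called in 0 of the 3 fits without 1 sample that tested them. In the fits without 1 sample 1 to 5 rose, fewest without Control replicate 1 or 3 or AOM/DSS + IgG Ab replicate 3. The gastric-type list had 17 tested members, of which 5 rose and 0 fell, with a median of 1.91 (1.18 without AOM/DSS + IgG Ab replicate 3), and 5 passed the filter only through the tumors, of which 4 (Muc6, Onecut2, Tff1 and Gkn1) rose. Muc6, a mucin of gastric glands, had 0.00312, 0 and 0.00371 FPKM in Control and 11.9, 1.7 and 1.1 FPKM in AOM/DSS + IgG Ab (log2 fold change 4.86, adjusted p = 0.028), and Onecut2, a transcription factor of the duodenum, had 0.011, 0.0125 and 0.00283 FPKM in Control and 3.39, 1.32 and 2.53 FPKM in AOM/DSS + IgG Ab (log2 fold change 4.44, adjusted p = 0.0035). The other rises were those of Tff1 (listed at 0 in Control and at 0.346, 0.578 and 0.168 FPKM in the tumors, adjusted p = 0.042), Gkn1 (listed at 0 in Control and at 0.357, 0.136 and 0.39 FPKM in the tumors, adjusted p = 0.047) and Aqp5 (log2 fold change 3.03, adjusted p = 0.028). Tff2, the trefoil factor of gastric glands, was listed at 0 in Control and at 0.588, 0.196 and 0.115 FPKM in the tumors and was not called (adjusted p = 0.086). Without AOM/DSS + IgG Ab replicate 1 or 3, 0 genes of the gastric-type list were called. In these fits Muc6, Onecut2, Tff1 and Gkn1 fell under the filter on low values and were not tested. Of the 3 fits without 1 sample that tested them, Onecut2 was called in 3 and Muc6, Tff1 and Gkn1 in 0.

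Of 43 tested genes of the mature absorptive colonocyte, 35 had a lower mean in the tumors, but 3 fell and 1 rose, with a median of -1.39. Slc26a3, the chloride-bicarbonate exchanger of the colon surface, had 200.1, 186 and 85.1 FPKM in Control and 2.79, 29.9 and 8.26 FPKM in AOM/DSS + IgG Ab (log2 fold change -4.03, standard error 0.81, adjusted p = 0.045). Car1, a carbonic anhydrase, had 258, 330.2 and 241 FPKM in Control and 23.8, 86.3 and 40.1 FPKM in AOM/DSS + IgG Ab (log2 fold change -2.65, standard error 0.44, adjusted p = 0.027), and Trpm6, a magnesium channel, had 6.1, 10.8 and 13.5 FPKM in Control and 1.23, 1.3 and 1.12 FPKM in AOM/DSS + IgG Ab (log2 fold change -2.89, standard error 0.33, adjusted p = 0.0069). Trpm6 was even in the tumors, and in the fits without 1 sample Car1 was called in 2 and Slc26a3 in 1. Car4 is a membrane-bound carbonic anhydrase and Aqp8 a water channel. Car4 had 318, 489.6 and 334 FPKM in Control and 1.37, 55.4 and 13.9 FPKM in AOM/DSS + IgG Ab, and Aqp8 had 162, 165 and 158 FPKM in Control and 1.08, 39.9 and 32.7 FPKM in AOM/DSS + IgG Ab. The groups did not overlap in either gene, but the spread between the tumors was wide and neither was called (adjusted p = 0.061 and 0.14). Guca2a, guanylin, had 1817, 1671 and 2334 FPKM in Control and 94.1, 725 and 573 FPKM in AOM/DSS + IgG Ab (adjusted p = 0.12). Clca4b, a chloride channel regulator of enterocytes, went up, with 6.16, 2.2 and 4.01 FPKM in Control and 51.9, 118 and 80.3 FPKM in AOM/DSS + IgG Ab (log2 fold change 4.34, adjusted p = 0.0048).

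Of the 43 colonocyte genes 24 had all tumors below all Control samples, which was so for 10.1% of all genes tested. The summed level of the list was from 12795 to 15944 FPKM in Control and from 3127 to 8471 FPKM in AOM/DSS + IgG Ab. Without AOM/DSS + IgG Ab replicate 2, the tumor nearest to Control, 13 members fell, and in the other fits without 1 sample as few as 1.

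**Figure D5:**
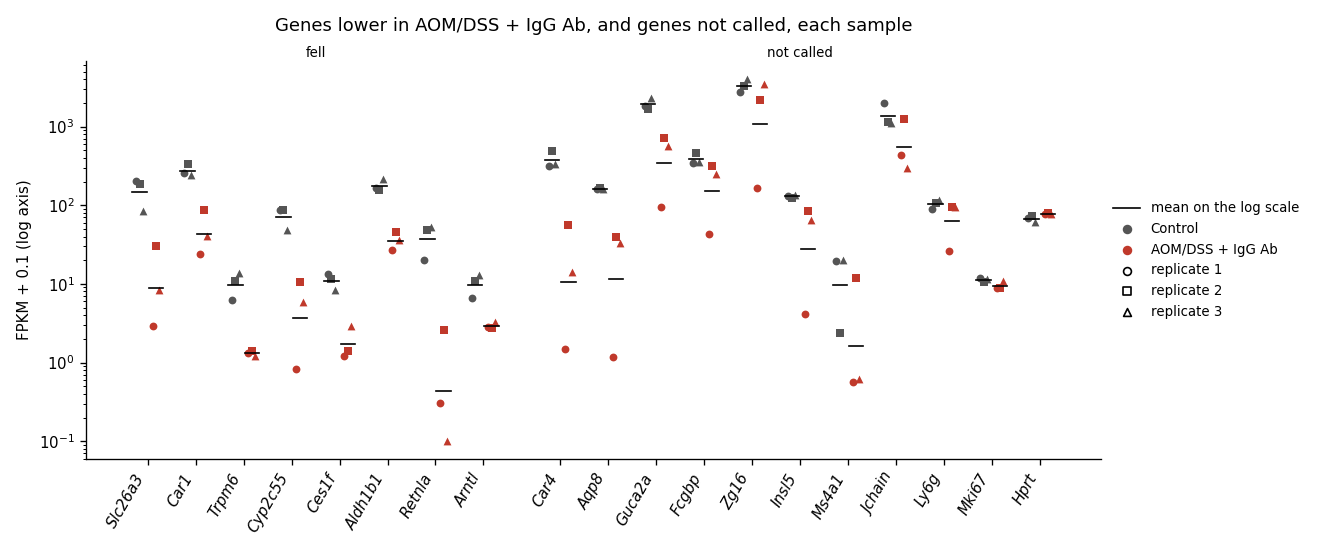
FPKM + 0.1 (log axis) of genes called lower (left) and of genes not called (right), 1 symbol per sample as circle, square and triangle for replicates 1, 2 and 3, Control in grey and AOM/DSS + IgG Ab in red, with the mean on the log scale as a bar. AOM/DSS + IgG Ab replicate 1 is the lowest tumor for Slc26a3, Car4, Aqp8, Zg16 and Insl5, while Trpm6 and Arntl are nearly even over the tumors.

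Of 40 tested genes of xenobiotic and lipid metabolism 7 fell and 2 rose, with a median of -1.08. Cyp2c55, a cytochrome P450 of the mouse colon, had 86.1, 86.9 and 48.5 FPKM in Control and 0.717, 10.4 and 5.84 FPKM in AOM/DSS + IgG Ab (log2 fold change -4.27, standard error 0.88, adjusted p = 0.048), and Ces1f, a carboxylesterase, had 13.4, 11.5 and 8.36 FPKM in Control and 1.12, 1.28 and 2.84 FPKM in AOM/DSS + IgG Ab (log2 fold change -2.69, standard error 0.38, adjusted p = 0.016). Gstm3, a glutathione transferase, fell from 16.8, 15.9 and 17 FPKM to 1.38, 5.71 and 3.67 FPKM (log2 fold change -2.39, adjusted p = 0.042). Aldh1b1, a mitochondrial aldehyde dehydrogenase, had 166, 156 and 218 FPKM in Control and 26.5, 45.2 and 36.2 FPKM in AOM/DSS + IgG Ab (log2 fold change -2.34, adjusted p = 0.0055). The other falls were those of Gstm1 (log2 fold change -1.25, adjusted p = 0.029) and Gstt1 (log2 fold change -1.68, adjusted p = 0.039) and of the sulfotransferase Sult1b1 (log2 fold change -1.79, adjusted p = 0.049). Sult1a1, a sulfotransferase, had 36.9, 74.9 and 69.5 FPKM in Control and 2.23, 21 and 13.6 FPKM in AOM/DSS + IgG Ab and was not called (adjusted p = 0.11). Cyp2b10, a cytochrome P450 that xenobiotics induce, was 1 of the 2 that rose and passed the filter only through the tumors, with 0.0188, 0.0222 and 0.0861 FPKM in Control and 2.68, 2.16 and 3.1 FPKM in AOM/DSS + IgG Ab (log2 fold change 4.29, adjusted p = 0.0019). Without AOM/DSS + IgG Ab replicate 2, 12 members fell, and in the other fits without 1 sample as few as 1. Cyp2c, Ces1 and Gstm genes are families of similar copies, so their values are uncertain where fragments were split among them.

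Secretory cell genes of the colon gave 0 calls in the lower direction. Of 22 tested goblet cell genes 0 rose and 0 fell, with a median of -0.69 (-0.10 without AOM/DSS + IgG Ab replicate 1 and -1.12 without AOM/DSS + IgG Ab replicate 2). Zg16 and Fcgbp are abundant goblet cell products. Zg16 had 2746, 3285 and 4054 FPKM in Control and 164, 2185 and 3502 FPKM in AOM/DSS + IgG Ab, and Fcgbp had 340.5, 465 and 349 FPKM in Control and 42.9, 319 and 246 FPKM in AOM/DSS + IgG Ab (adjusted p = 0.41 and 0.31). Replicate 1 was far below the other tumors in both. Spink4, a protease inhibitor of goblet cells, had 1241, 1593 and 1831 FPKM in Control and 874, 3941 and 6795 FPKM in AOM/DSS + IgG Ab (adjusted p = 0.52). Of 22 tested enteroendocrine genes 1 rose and 0 fell, with a median of -1.15 (-0.57 without AOM/DSS + IgG Ab replicate 1). Nts, neurotensin, was the gene that rose (log2 fold change 2.46, adjusted p = 0.039). Chga is chromogranin A and Insl5 a hormone of the distal colon. Chga had 41.6, 46.9 and 96.5 FPKM in Control and 5.41, 24.4 and 43 FPKM in AOM/DSS + IgG Ab, and Insl5 had 130.0, 124 and 133 FPKM in Control and 3.99, 83.7 and 64.8 FPKM in AOM/DSS + IgG Ab, and neither was called (adjusted p = 0.23 and 0.27). In the tuft cell list 1 of 14 members rose, Avil (advillin), with 0.728, 0.894 and 1.36 FPKM in Control and 33.2, 13.3 and 16 FPKM in AOM/DSS + IgG Ab (log2 fold change 4.18, adjusted p = 0.0044), whereas Trpm5, the taste channel that marks tuft cells, had 0.39, 0.34 and 0.739 FPKM in Control and 0.146, 0.313 and 0.0753 FPKM in AOM/DSS + IgG Ab (adjusted p = 0.2). Of 26 genes of intestinal identity and colon position, 1 rose and 0 fell, with a median of -0.08 (-0.19 without AOM/DSS + IgG Ab replicate 1 to -0.06 without AOM/DSS + IgG Ab replicate 2). Isx, an intestinal homeobox gene, rose (log2 fold change 2.45, adjusted p = 0.036). Cdx2, a master factor of intestinal identity, had 24.5, 21.7 and 25.2 FPKM in Control and 8.14, 25.2 and 17.4 FPKM in AOM/DSS + IgG Ab (adjusted p = 0.37), and Hnf4a had 124, 129.5 and 107 FPKM in Control and 59.6, 93 and 76.6 FPKM in AOM/DSS + IgG Ab (adjusted p = 0.12).

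Of 40 tested cell cycle genes 1 rose and 0 fell, against 3.36% and 0.694% of all genes tested, with a median of 0.38. In 19 of the 40 all tumors were above all Control samples, against 21.1% of all genes tested. Mki67, the usual proliferation marker, had 11.9, 10.4 and 11.4 FPKM in Control and 8.72, 8.81 and 10.9 FPKM in AOM/DSS + IgG Ab (adjusted p = 0.42), and Top2a, topoisomerase IIα, had 13.6, 12.6 and 10.9 FPKM in Control and 15.9, 14.8 and 16.5 FPKM in AOM/DSS + IgG Ab (adjusted p = 0.24). The gene that rose was Cdkn2a, an inhibitor of the cell cycle, with 0.137, 0 and 0.298 FPKM in Control and 8.93, 7.02 and 11.2 FPKM in AOM/DSS + IgG Ab (log2 fold change 5.41, standard error 0.52, adjusted p = 0.0044). Cdkn1a, another inhibitor of the cell cycle, passed the adjusted threshold but not 2-fold (log2 fold change 0.97, adjusted p = 0.042). In the prostaglandin and eicosanoid list 2 of 16 genes rose and 0 fell, with a median of 0.14 (0.06 without AOM/DSS + IgG Ab replicate 3). Alox15 and Alox12 are lipoxygenases. Alox15 had 0.196, 0.701 and 0.283 FPKM in Control and 50.6, 27.9 and 8.56 FPKM in AOM/DSS + IgG Ab, and Alox12 had 0.473, 0.422 and 0.35 FPKM in Control and 14.8, 4.16 and 20.3 FPKM in AOM/DSS + IgG Ab (log2 fold change 5.68 and 4.41, adjusted p = 0.0083 and 0.011). Ptgs2, cyclooxygenase 2, had 1.67, 1.96 and 1.06 FPKM in Control and 3.06, 2.59 and 1.98 FPKM in AOM/DSS + IgG Ab, and Hpgd, which degrades prostaglandins, had 99.3, 166 and 97.4 FPKM in Control and 16.5, 52.8 and 38.7 FPKM in AOM/DSS + IgG Ab, and neither was called (adjusted p = 0.25 and 0.07). Neither lipoxygenase was called without Control replicate 3.

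Of 29 tested markers of macrophages and monocytes 1 rose and 1 fell, with a median of 0.01 (-0.19 without AOM/DSS + IgG Ab replicate 3 to 0.35 without AOM/DSS + IgG Ab replicate 1). Arg1, arginase 1, had 0.192, 0.172 and 0.195 FPKM in Control and 11.9, 10.3 and 59.5 FPKM in AOM/DSS + IgG Ab (log2 fold change 6.09, standard error 0.65, adjusted p = 0.0057), and Retnla, a resistin-like protein of alternatively activated macrophages and eosinophils, had 20.2, 47.9 and 53 FPKM in Control and 0.203, 2.49 and 0 FPKM in AOM/DSS + IgG Ab (log2 fold change -6.44, standard error 1.11, adjusted p = 0.029). Retnla was called in 1 of the 6 fits without 1 sample. Adgre1 (F4/80) and Cd68 mark macrophages in general. Adgre1 had 13, 7.48 and 5.47 FPKM in Control and 3.39, 7.57 and 4.16 FPKM in AOM/DSS + IgG Ab, and Cd68 had 20.4, 14.9 and 20.4 FPKM in Control and 14.6, 23.7 and 31.5 FPKM in AOM/DSS + IgG Ab (adjusted p = 0.31 and 0.62). In the MHC and interferon list, 1 of 34 genes rose, Usp18 (log2 fold change 2.98, adjusted p = 0.046), with a median of -0.29 (-0.76 without AOM/DSS + IgG Ab replicate 2 to -0.01 without AOM/DSS + IgG Ab replicate 1). H2-Aa, of MHC class II, had 107, 41 and 217 FPKM in Control and 21.6, 83.7 and 27.1 FPKM in AOM/DSS + IgG Ab (adjusted p = 0.28). In the mast cell list 1 of 14 genes rose, Tpsab1, a tryptase (log2 fold change 3.67, adjusted p = 0.012), with a median of 1.16 (0.58 without Control replicate 3).

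Markers of lymphocytes and of the layers beneath the epithelium differed widely between samples of the same group. Of 17 tested B cell genes 0 rose and 0 fell. All 17 had a lower mean in the tumors, with a median of -2.0 (-1.29 without AOM/DSS + IgG Ab replicate 1 and -3.20 without AOM/DSS + IgG Ab replicate 2), but 0 had groups that did not overlap. With sample quality weights, which gave Control replicate 2 the most weight, the median of the B cell list was 0.20. Ms4a1 (CD20) had 19.4, 2.29 and 19.9 FPKM in Control and 0.471, 11.9 and 0.523 FPKM in AOM/DSS + IgG Ab (adjusted p = 0.3), with Control replicate 2 low and AOM/DSS + IgG Ab replicate 2 high for its group. The summed level of the B cell list was from 64.2 to 606 FPKM in Control and from 37.7 to 297 FPKM in AOM/DSS + IgG Ab, and that of the 17 plasma cell genes, 0 of them called, was from 6112 to 7344 FPKM in Control and from 1947 to 5694 FPKM in AOM/DSS + IgG Ab. Jchain, the joining chain of secreted IgA, had 1974, 1156 and 1114 FPKM in Control and 431, 1236 and 298 FPKM in AOM/DSS + IgG Ab (adjusted p = 0.22). Of 27 T and NK cell genes 0 rose and 1 fell, with a median of -0.47 (-1.12 without Control replicate 2 to 0.04 without Control replicate 3). The summed level of that list was from 71.4 to 158 FPKM in Control and from 41.6 to 100.3 FPKM in AOM/DSS + IgG Ab. Of 23 smooth muscle genes 22 had a lower mean in the tumors, with a median of -1.01 (-0.47 without AOM/DSS + IgG Ab replicate 1 and -1.59 without AOM/DSS + IgG Ab replicate 3), and 1 fell, Pln, phospholamban (log2 fold change -2.78, adjusted p = 0.031). Their summed level was from 2859 to 4623 FPKM in Control and from 1034 to 5167 FPKM in AOM/DSS + IgG Ab. Myh11, smooth muscle myosin, had 162, 280.5 and 212 FPKM in Control and 34.6, 69.8 and 189.9 FPKM in AOM/DSS + IgG Ab (adjusted p = 0.2). Of 17 adipocyte genes 15 had a lower mean in the tumors, with a median of -1.51, but 0 were called, while 9 fell when all 9 samples were fitted. Their summed level was from 213 to 579 FPKM in Control and from 68.7 to 148 FPKM in AOM/DSS + IgG Ab. Adipoq, adiponectin, was listed at 0 in AOM/DSS + IgG Ab replicates 1 and 3 and at 1.23 FPKM in replicate 2, against 4.26, 16.9 and 2.99 FPKM in Control (adjusted p = 0.07). Of 23 genes of enteric neurons and glia 19 had a lower mean in the tumors, with a median of -1.09 (-0.47 without AOM/DSS + IgG Ab replicate 1), and 1 rose, Npy, neuropeptide Y (log2 fold change 2.54, adjusted p = 0.0065). Their summed level was from 69.3 to 144 FPKM in Control and from 46.4 to 227 FPKM in AOM/DSS + IgG Ab. Sox10, of enteric glia, had 1.19, 1.88 and 1.46 FPKM in Control and 0.215, 0.867 and 0.769 FPKM in AOM/DSS + IgG Ab (adjusted p = 0.17). The sums of the plasma cell and adipocyte lists did not overlap between the groups, and those of the B cell, T and NK cell, smooth muscle and neuron lists did. Without AOM/DSS + IgG Ab replicate 2, 4 T and NK cell, 3 plasma cell and 3 adipocyte genes fell. The part of these cell types in the other results was not tested.

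In the circadian clock list 1 of 17 genes fell, Arntl (Bmal1), with 6.47, 10.9 and 12.7 FPKM in Control and 2.69, 2.65 and 3.14 FPKM in AOM/DSS + IgG Ab (log2 fold change -1.74, standard error 0.29, adjusted p = 0.025). Per2, a repressor of the clock, had 32.1, 26.4 and 15.5 FPKM in Control and 7.16, 16.4 and 5.53 FPKM in AOM/DSS + IgG Ab, and Nr1d1, which represses Arntl, had 8.85, 4.84 and 2.58 FPKM in Control and 12.8, 13.2 and 24.8 FPKM in AOM/DSS + IgG Ab. Neither of these passed (adjusted p = 0.12 and 0.093 for Per2 and Nr1d1). All tumors lay above all Control samples for Nr1d1, and the groups overlapped for Per2. Arntl was called in 2 of the 6 fits without 1 sample. The largest falls of all, by the rule for named genes, included Igkv4-63, an immunoglobulin κ variable segment, with 153, 17.2 and 246 FPKM in Control and 2.08, 0 and 0.704 FPKM in AOM/DSS + IgG Ab (log2 fold change -7.27, adjusted p = 0.035), and Rims4, a presynaptic protein gene, with 4.44, 5.05 and 4.86 FPKM in Control and 0.0268, 1.17 and 0.148 FPKM in AOM/DSS + IgG Ab (log2 fold change -3.84, adjusted p = 0.047). Igkv4-63 belongs to a family of near-identical segments and is uncertain where fragments were split among them, and it was called in 3 of 6 fits without 1 sample and Rims4 in 1.

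Of 17 reference genes that most cells express 1 rose, Gusb, with 10.5, 9.37 and 11.7 FPKM in Control and 26.8, 22 and 21.6 FPKM in AOM/DSS + IgG Ab (log2 fold change 1.15, adjusted p = 0.017), and 0 fell, with a median of 0.19. Hprt had 68.5, 72.9 and 61.1 FPKM in Control and 76.1, 79.9 and 76.1 FPKM in AOM/DSS + IgG Ab (adjusted p = 0.44). Of 11 tested genes of the mitochondrial genome 0 were called, with a median of -0.09 (-0.28 without Control replicate 3 to 0.04 without AOM/DSS + IgG Ab replicate 3) and a summed level from 13025 to 20867 FPKM in Control and from 13167 to 18001 FPKM in AOM/DSS + IgG Ab, lowest in replicate 3 of each group. For the same reason as with Rps18, named above, genes with a 0 are called listed at 0 and not absent.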

How the data were processed

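RNA of whole tissue was isolated with the mirVana kit and sequenced as 1 Solexa library per sample. The authors deposited 1 table of FPKM values per sample with 21544 gene rows. TopHat, Cufflinks, HTSeq, DESeq and the build GRCm38 are named in the submitters' processing notes, and their versions and roles are not given in the sources used here. The FPKM show no steps of whole reads, so the depth behind a value is unknown, and a gene's value depends on how Cufflinks split fragments among similar transcripts. The FPKM of 46 rows that repeat a symbol were added to the row of that symbol. Genes were tested with limma 3.58.1 in R 4.3.3 (lmFit, eBayes with an intensity trend, two-sided) on log2(FPKM + 0.1) over the 6 samples, and p-values were adjusted over all 14985 genes tested; the script was tested on simulated data. FPKM sums per sample were 329518 to 408811. Correlations of log2 values were 0.911 to 0.961 within and 0.833 to 0.914 between groups, and no replicate pair held the same values. With 3 against 3 samples an exact permutation test of 1 gene cannot give a p under 0.1, so none was run. Genes were named by a rule: a fixed set of S100a9-related genes, the largest rises and falls, marker genes of each list, the most changed called members and the most abundant members that were not called. The lists and the rule were chosen with earlier results of these data known. Sequences and gene names are from RefSeq (GRCm38.p6). Alternatives covered the samples fitted, the replicate number as a block, thresholds, pseudocount, filter, scaling, trend and weights. A few called genes are counted in their lists but not reported here by name.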

Additional observations from a re-analysis of the deposited data

How the results depend on the processing

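The 503 higher and 104 lower genes became 950 and 355 when all 9 samples were fitted, 1008 and 453 with sample quality weights, and 1229 and 691 with a change of more than 2-fold and an unadjusted p under 0.05. A pseudocount of 1 gave 318 higher genes, and fitting every gene with a value above 0 gave 58 lower genes. Leaving out 1 sample gave 144 to 458 higher and 13 to 250 lower genes, with 140 to 345 of the higher and 12 to 89 of the lower ones called in both fits. The other counts, under the remaining filter, pseudocount, threshold, trend and scaling settings, lay within 1.5 times of the reported ones. No called gene changed its sign in any of the 16 alternative fits. With the replicate number as a block, 202 genes were higher and 36 lower. The labels do not say whether equal numbers pair the samples. Deviations of same-numbered samples from their group means correlated at 0.15, -0.19 and 0.09. Control replicate 1 correlated best with AOM/DSS + IgG Ab replicate 1, and Control replicate 2 with AOM/DSS + IgG Ab replicate 3. With 3 samples per group these correlations depend on each other, so they cannot decide whether the numbers pair the samples. The cause of the changes in the counts was not tested. The median of the T and NK cell list was 0.66 and that of the MHC and interferon list 0.35 with sample quality weights, opposite in sign to the reported medians. The 3 samples per group limit what the falls can show, since 8 of 104 were called in all fits without 1 sample, and the depth is unknown.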

Other observations

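Of the called genes, 379 of the 503 raised and 86 of the 104 lowered stood in none of the 39 lists, and those named here were chosen after their values were seen. Cldn4, a tight junction protein, had 11.2, 12.1 and 13.6 FPKM in Control and 336, 122 and 336 FPKM in AOM/DSS + IgG Ab (log2 fold change 4.27, standard error 0.40, adjusted p = 0.0039), and Krt23, a keratin of simple epithelium, had 1.6, 0.994 and 1.06 FPKM in Control and 130.4, 53.6 and 59.7 FPKM in AOM/DSS + IgG Ab (log2 fold change 5.86, standard error 0.37, adjusted p = 0.0012). Slc30a2, a zinc transporter of secretory cells, had 0.146, 0.105 and 0.135 FPKM in Control and 214, 68.1 and 63.4 FPKM in AOM/DSS + IgG Ab (log2 fold change 8.74, standard error 0.47, adjusted p = 0.00062). The tumors lay above Control in each of these genes, with replicate 1 at or near the top. Tnfrsf11b, osteoprotegerin, had 1.11, 0.751 and 0.548 FPKM in Control and 58.6, 18.1 and 27.2 FPKM in AOM/DSS + IgG Ab (log2 fold change 5.14, standard error 0.46, adjusted p = 0.0034), and Slc16a3, a lactate exporter, had 1.95, 2.09 and 1.49 FPKM in Control and 18.9, 20.7 and 15.2 FPKM in AOM/DSS + IgG Ab (log2 fold change 3.24, standard error 0.22, adjusted p = 0.0015).

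Gbx2, a homeobox factor of the early hindbrain, had 0.0441, 0 and 0.167 FPKM in Control and 11.1, 4.44 and 2.78 FPKM in AOM/DSS + IgG Ab (log2 fold change 5.07, standard error 0.59, adjusted p = 0.0076), and Tbx3, a T-box factor, had 2.55, 3.39 and 2.61 FPKM in Control and 55.6, 21 and 18.9 FPKM in AOM/DSS + IgG Ab (log2 fold change 3.26, standard error 0.41, adjusted p = 0.01). Replicate 1 was the highest tumor for both genes, and the groups did not overlap in either.

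Of the lowered genes outside the lists, Mep1a, a brush-border protease, had 36.8, 35 and 41.1 FPKM in Control and 3.5, 13.3 and 5.94 FPKM in AOM/DSS + IgG Ab (log2 fold change -2.51, standard error 0.44, adjusted p = 0.031). Abcg2, an efflux pump for xenobiotics, had 8.69, 11.2 and 8.4 FPKM in Control and 1.77, 3.82 and 2.96 FPKM in AOM/DSS + IgG Ab (log2 fold change -1.74, standard error 0.31, adjusted p = 0.032). All tumors lay below all Control samples for both of these genes. Igkv4-61, an immunoglobulin κ variable segment, had 75.8, 135 and 144 FPKM in Control and 15.2, 13.4 and 17.2 FPKM in AOM/DSS + IgG Ab (log2 fold change -2.90, standard error 0.27, adjusted p = 0.0039), and its value is uncertain because such segments are near-identical copies.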
